A study of Drosophila melanogaster with 2 samples.

Results

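Cytosolic ribosomal protein genes were examined in a chromatin immunoprecipitation sequencing (ChIP-seq) experiment on scratch (scrt), a neuronal zinc-finger protein of the Snail family, in whole Drosophila melanogaster embryos. The genes were chosen by symbol: every protein-coding gene named RpL or RpS with a number, an A or a P-stalk number was taken, which gave 92 of 13945 protein-coding genes on the 6 chromosome arms that carried peaks. Of these, 54 encode proteins of the large subunit and 38 of the small subunit. The symbol rule used no binding value, but the family was chosen with earlier results of these data known. The material was a transgenic line that carries scrt with green fluorescent protein at its C terminus, collected as mixed-sex embryos from 4 to 24 h of development. There was 1 group with 2 biological replicates, numbered 3 and 4, and no untreated, wild-type or mutant group, so each value describes this material and no condition was compared. The labels named scrt as the antibody target but also described both libraries as input controls. They were treated here as scrt immunoprecipitations, because of the named target and because peak lists were deposited for them. Whole embryos mix neurons, where scrt is known to act, with all other tissues, so a peak could not be assigned to a cell type.

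Ribosomal proteins are made in equal numbers for ribosome assembly, and their genes are among the most strongly transcribed in growing cells. In flies many of them are haploinsufficient and give the Minute phenotype of slow development and short bristles when a copy is lost. Their promoters often start transcription at a polypyrimidine TCT initiator in place of the usual initiator, and many carry the DNA replication-related element (DRE), the site of the factor Dref, or the motif bound by M1BP. Snail-family proteins recognise E-boxes with the core CAGGTG. Some ribosomal proteins have an additional gene copy that is used mainly in the germ line.

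The start-site sequences are those of the genes with the highest peaks and of gene copies that differed in binding. RpL34b, RpL7-like, RpS27 and RpL7 held the 4 highest peaks among these genes, and the pairs RpL10Ab with RpL10Aa and RpL24 with RpL24-like each had a bound copy, named first, and an unbound copy. Each run holds the 60 bases before the representative annotated start and the first 20 transcribed bases, 5′ to 3′ in the direction of transcription, from the RefSeq Release 6 genome, which is the dm6 assembly. The summits counted for RpL34b and RpL7-like lay upstream of the printed windows. Capitals mark matches to the motifs spelled out further on. The windows were chr3R:9401207-9401286 on the minus strand for RpL34b, chr2L:12056288-12056367 on the plus strand for RpL7-like, chr3R:25247495-25247574 on the minus strand for RpS27 and chr2L:10200944-10201023 on the plus strand for RpL7. They were chr3L:11822791-11822870 on the plus strand for RpL10Ab, chr3R:15037306-15037385 on the plus strand for RpL10Aa, chr2L:13395073-13395152 on the minus strand for RpL24 and chr3R:11431563-11431642 on the minus strand for RpL24-like.
RpL34b: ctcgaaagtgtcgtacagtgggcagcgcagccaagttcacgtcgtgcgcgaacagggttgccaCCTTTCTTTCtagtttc
RpL7-like: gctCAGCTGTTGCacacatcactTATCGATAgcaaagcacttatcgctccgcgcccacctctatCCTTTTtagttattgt
RpS27: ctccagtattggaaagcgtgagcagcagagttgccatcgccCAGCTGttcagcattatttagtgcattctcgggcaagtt
RpL7: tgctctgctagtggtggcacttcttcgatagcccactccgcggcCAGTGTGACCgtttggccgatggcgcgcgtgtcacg
RpL10Ab: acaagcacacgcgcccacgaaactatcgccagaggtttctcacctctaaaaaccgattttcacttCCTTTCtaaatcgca
RpL10Aa: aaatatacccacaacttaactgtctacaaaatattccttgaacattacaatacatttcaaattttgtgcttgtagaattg
RpL24: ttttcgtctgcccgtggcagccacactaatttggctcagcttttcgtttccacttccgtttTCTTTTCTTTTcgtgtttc
RpL24-like: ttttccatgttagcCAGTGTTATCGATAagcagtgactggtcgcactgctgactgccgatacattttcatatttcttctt
The TCT initiator lay at the start of RpL34b, RpL7-like, RpL10Ab and RpL24, and of neither unbound copy. RpL7-like also carried a DRE, and an E-box CAGCTG that ran into a GCAACA word read from the other strand. In RpL7 the M1BP motif and the word ACACTG overlapped within the capitals, both read from the other strand. The unbound RpL24-like carried a DRE next to an ACACTG word, and RpL10Aa matched none of the motifs in this run of bases.

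Peaks lay at most ribosomal protein genes. A gene was called bound when the summit of a peak in the optimal list, the deposited list of 6407 peaks kept after the irreproducible discovery rate (IDR) procedure, fell within 1000 bp of any of its annotated transcription start sites. By this rule 76 of the 92 genes were bound (82.6%), where the same rule called 25.6% of all protein-coding genes bound. The 76 genes took 76 distinct peaks as their best peak, that of highest signal, and 9 of them had more than 1 optimal peak in the window. In the large subunit 43 of 54 genes were bound (79.6%), and in the small subunit 33 of 38 (86.8%). This order turned when only the 3203 optimal peaks of highest signal were used, with 38 large-subunit (70.4%) and 23 small-subunit genes (60.5%) bound. The P stalk, the flexible arm that recruits elongation factors to the ribosome, was bound at the genes of all 3 of its proteins, RpLP0, RpLP1 and RpLP2. All 14 members on the X chromosome were bound, with 22.7% of all X-linked protein-coding genes, and 14 of 21 members on arm 2R, with 24.5% of all genes there. On 2L, 3L and 3R the counts were 16 of 19, 13 of 14 and 18 of 23, with 24.7%, 27.8% and 27.6% of all genes there. The single member on chromosome 4, RpS3A, was bound, with 15.0% of all genes there.

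Gene structure went with the share bound, among these genes and among all genes. Members with at least 2 annotated starts were bound in 41 of 44 cases and members with a single start in 35 of 48, and over all protein-coding genes these shares were 43.0% and 19.3%. Among members with a divergently transcribed coding neighbour starting within 1000 bp, 49 of 55 were bound, and without one 27 of 37 were bound. Over all protein-coding genes the shares were 37.9% and 18.6%. Many fly ribosomal protein genes carry small nucleolar RNA (snoRNA) genes in their introns, which guide modification of ribosomal RNA. Here 28 members held 74 annotated snoRNA genes, 14 of them in RpS5a and 7 in RpS7, and 25 of these 28 hosts were bound (89.3%). Of the 64 members without a snoRNA gene, 51 were bound (79.7%). Of the snoRNA hosts that are no ribosomal protein genes, 30 of 56 were bound (53.6%).

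Peak signals at the bound members ranged from 196 to 2939.6 with a median of 605, in the deposited signal unit of the optimal list, and the other 3494 bound genes had a median of 419. Signal in that list ran from 193 to 10012.8 over all 6407 peaks. The median was 751 at the 43 large-subunit genes and 506 at the 33 small-subunit genes, and the ranges of the subunits overlapped from 210.1 to 1647. The best-ranked member was RpL34b at rank 82, and the first 1000 ranks held 26 members. Among genes with a peak in both replicate lists, ranks 1 to 1281 held 34 of 73 members and 1079 of 3344 other bound genes.

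**Figure D1:**
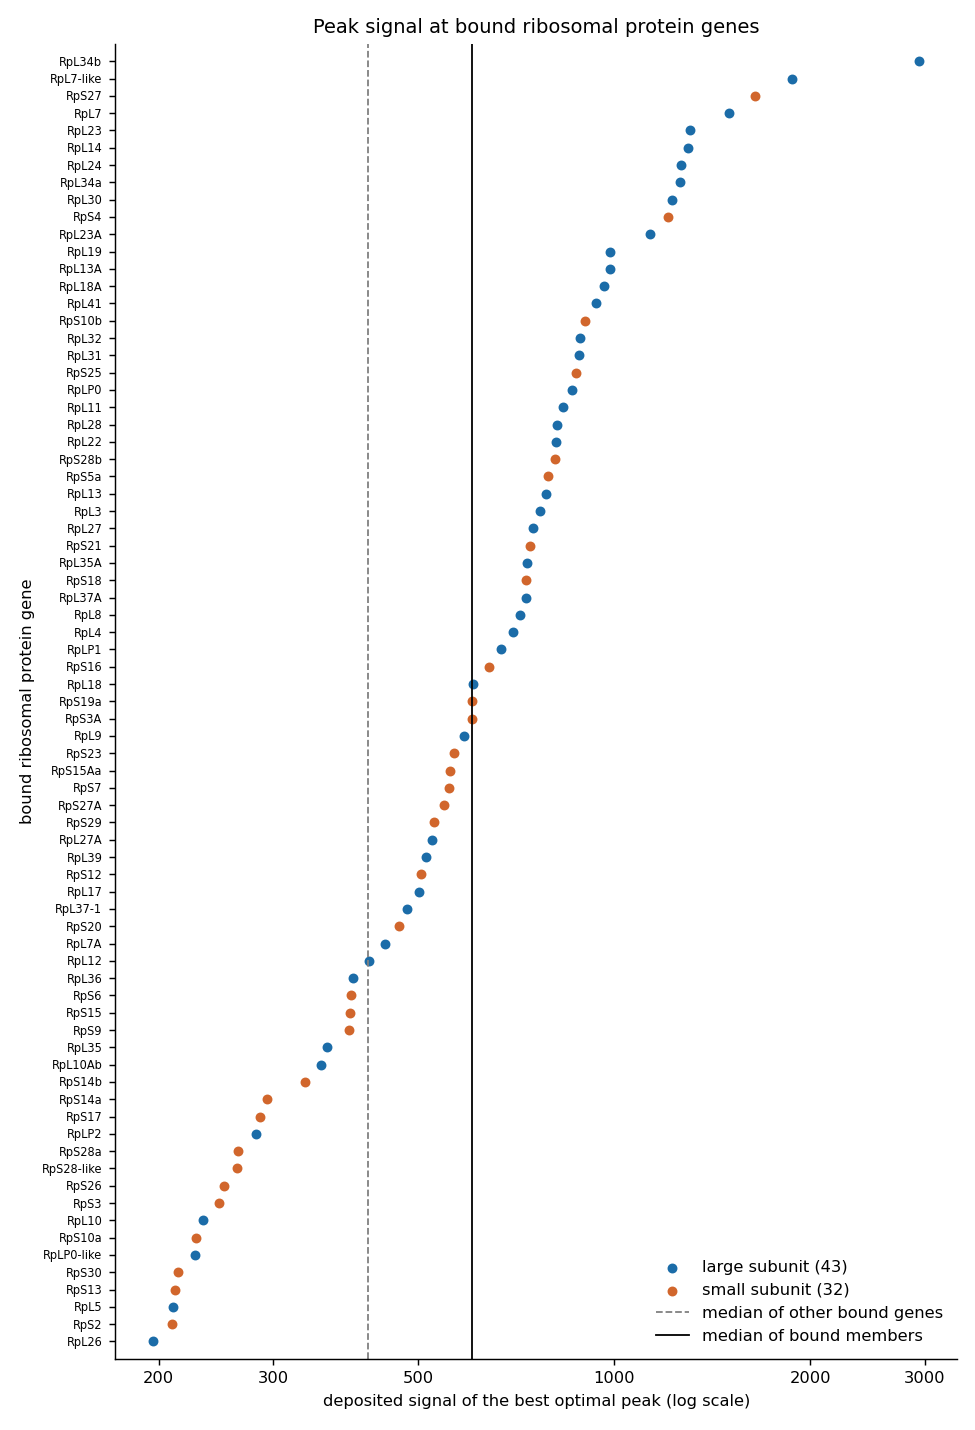
Deposited signal of the best optimal peak (horizontal, log scale) at bound ribosomal protein genes, with 43 large-subunit genes in blue and 32 of 33 small-subunit genes in orange. Values run from 196 at RpL26 to 2939.6 at RpL34b, and the median of 605 (solid line) lies above the median of 419 of other bound genes (dashed line).

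8 of the 10 highest peaks belonged to the large subunit. RpL34b had a signal of 2939.6 and its neighbours in order were RpL7-like at 1874, RpS27 at 1647 and RpL7 at 1499.6. RpL7 is a structural protein of the large subunit, whereas RpL7-like resembles a yeast protein of ribosome assembly. The next were RpL23 at 1307, RpL14 at 1297, RpL24 at 1266, RpL34a at 1264, RpL30 at 1226 and RpS4 at 1212. Ranks in the replicate lists did not keep this order. RpL34b ranked 62 in replicate 3 and 136 in replicate 4, whereas RpL30 ranked 986 and 281, and RpS4 1031 and 277. RpL24 ranked 714 in replicate 3 and 319 in replicate 4, RpL34a 367 and 633, and RpL23 369 and 483. The lowest signals were 196 at RpL26 (rank 6273 of 6407), 210.1 at RpS2, 211 at RpL5, 212 at RpS13 and 214 at RpS30. RpL5 binds 5S ribosomal RNA together with RpL11, whose own peak was higher at 836, and RpS30 is made as a fusion with a ubiquitin-like protein.

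The summits lay almost on the annotated starts. The median distance from summit to nearest start was 23.5 bp at bound members and 177 bp at other bound genes. Within 50 bp of the start were 58 of 76 members (76.3%), and of the other bound genes 16.7%. Within 10 bp were 22 members (28.9%), with 4.12% of the other genes, and RpL27, RpL27A and RpS3A had the summit on a start base itself. The median was 26 bp in the large subunit and 17 bp in the small subunit. Summits lay upstream of the start at 47 members (61.8%) and at 74.8% of other bound genes, and by annotation 37 fell outside and before the gene, 34 in a 5′ untranslated region, 3 in an intron and 2 past the gene's end. A gene with many annotated starts has more chances of a near one, so genes with a single start were also taken alone. Their medians were 37 bp over 35 members and 172 bp over 1943 other bound genes.

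**Figure D2:**
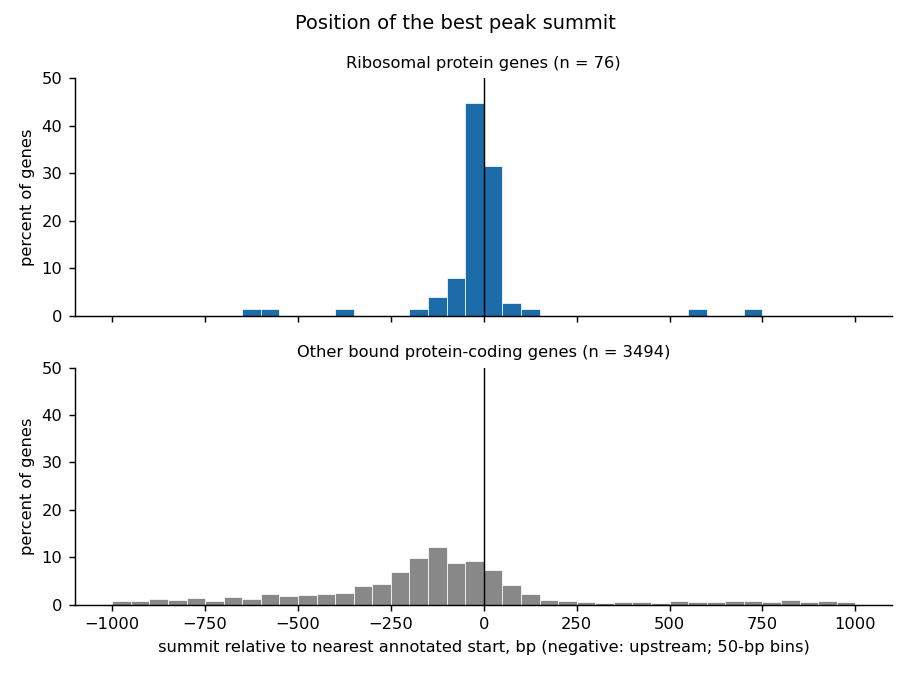
Position of the best peak's summit relative to the nearest annotated start, in bp (negative is upstream), as percent of genes in 50-bp bins, for 76 bound ribosomal protein genes (above) and 3494 other bound protein-coding genes (below). The members form a narrow column at the start, with 76.3% within 50 bp, while the other genes spread mainly upstream with a median distance of 177 bp.

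Only 4 members had the best summit more than 500 bp from a start, namely RpL23 at 599 bp, RpL26 at 633 bp, RpS28a at 561 bp and RpS28-like at 712 bp. At each of these another gene's start was closer. The RpL23 peak lay 43 bp from CG13531, the RpL26 peak 51 bp from CG3902, the RpS28a peak 134 bp from Mgat2 and the RpS28-like peak 47 bp from numb, the Notch inhibitor of asymmetric cell division. RpL23 had an additional optimal peak 14 bp from its own start, with a signal of 356 and rank 2913, so its place among the 10 highest came from the peak at the neighbour. RpL23 was the single member whose nearest peak was not its highest.

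Many peaks could be counted for a neighbour as well. A divergently transcribed coding neighbour starting within 1000 bp was present at 55 of 92 members and at 5052 of 13945 protein-coding genes. Among bound genes it was present at 49 of 76 members and at 1914 of all 3570. Of the 76 peaks, 49 had a summit within 1000 bp of another protein-coding start, a share that was not counted for other bound genes. These peaks made 54 pairs with 54 neighbours, none of them a ribosomal protein gene. The summit was closer to the ribosomal protein gene in 45 pairs, closer to the neighbour in 8 and at equal distance in 1. In that last pair RpS27A, which is made as a ubiquitin fusion, and Ip259 were annotated with the same start coordinate. The neighbour was divergently transcribed in 49 of the 54 pairs, and in 43 of these the summit was closer to the ribosomal protein gene. The closer start was not counted at shared peaks of other bound genes, so these pair counts have no background share.

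Several of these neighbours have known roles in transcription and translation. At the promoter of RpL13 and Dref, whose product binds the DRE, the summit lay 4 bp from the start of RpL13 and 80 bp from that of Dref, with a signal of 787. RpL14 shared its peak with Nelf-E, a subunit of the negative elongation factor, at 26 and 101 bp. RpS27 shared one with the nucleoporin gene Nup37 at 6 and 138 bp, RpL9 with the nucleoporin gene Nup154 at 1 and 666 bp, and RpL28 with the translation initiation factor gene eIF1 at 61 and 320 bp. The starts of RpL7 and Ripalpha lay 30 bp apart, and the summit was 22 bp from RpL7 and 52 bp from Ripalpha. RpS6, the substrate of S6 kinase, shared its peak with bys, a ribosome assembly gene, at 91 and 640 bp. The 6 divergent pairs with the summit closer to the neighbour were RpL23 with CG13531, RpL26 with CG3902, RpL34a with Trmt61 (128 and 101 bp), RpL34b with CG8132 (135 and 134 bp), RpLP0-like with 14-3-3zeta (134 and 47 bp) and RpS20 with CG17271 (194 and 139 bp). At RpL34b, the highest of these peaks, the summit thus lay midway between the starts. With sonicated fragments of 200 to 800 bp, a peak between close starts could not be assigned to either gene. The 27 members whose peak had no other coding start within 1000 bp had a median distance of 17.0 bp. With starts of all gene types counted, noncoding genes included, 61 of the 76 peaks had another gene's start within 1000 bp. This share, too, was not counted for other bound genes.

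Many paralogue pairs were split between a bound and an unbound copy. Among the 65 members with no listed paralogue 56 were bound (86.2%), and among the 27 members of the 14 listed pairs 20 were bound (74.1%). In 7 pairs both copies were bound, in 7 pairs 1 copy, and in none neither. In the pairs with a single bound copy, the signal was 355 at RpL10Ab (RpL10Aa unbound), 815 at RpL22, 1266 at RpL24, 482 at RpL37-1, 791 at RpS5a, 560.1 at RpS15Aa and 606 at RpS19a. The unbound partners were RpL22-like, RpL24-like, RpL37-2, RpS5b, RpS15Ab and RpS19b. RpL22-like, RpS5b and RpS19b are known as germ-line copies, and RpL24-like as the relative of a yeast assembly factor. The TCT initiator was present at the start of all 7 bound copies and at 2 of the 7 unbound copies, RpL37-2 and RpS5b. In the 7 pairs with both copies bound, RpL7, RpL34a, RpLP0, RpLP0-like, RpS10a, RpS28a and RpS28-like lacked it. The other genes of those pairs carried it.

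Where both copies were bound, their signals were within 1.5-fold of each other in 2 pairs and further apart in the other 5. RpL7 and RpL7-like had 1499.6 and 1874, and the tandem copies RpS14a and RpS14b had 293 and 335. RpL34a had 1264 and RpL34b 2939.6, with RpS10a at 228 and RpS10b at 903. RpS28b had 812, while RpS28a at 265 and RpS28-like at 264 owed their call to summits more than 500 bp away. RpLP0, the base of the P stalk, had 862, and RpLP0-like, a relative of a yeast assembly factor, had 228 with the summit closer to 14-3-3zeta. Near-identical copies can lose reads in alignment, and the authors' handling of reads with several matches is not given in the sources used here. Of all 32-base words within 200 bp of each member's start, at least 95.9% occurred once in the genome at bound members and at least 99.5% at unbound members. Apart from RpL17, RpL7A and RpS15Ab, the share was 100% in every member.

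**Figure D3:**
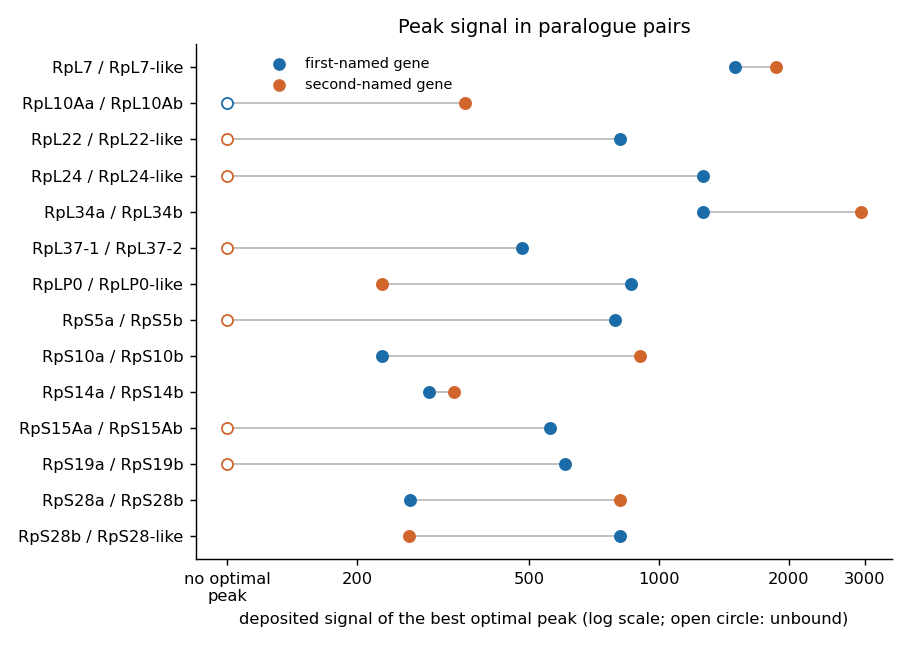
Deposited signal of the best optimal peak (horizontal, log scale) for both genes of each of the 14 listed paralogue pairs, the first-named gene in blue and the second in orange, with an open circle at the left where a gene was unbound. In 7 pairs 1 copy has no optimal peak, and where both have one the signals lie closest together in RpS14a with RpS14b and in RpL7 with RpL7-like.

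The 16 unbound members were 11 of the large and 5 of the small subunit. Of these, 9 have no listed paralogue, among them RpL6, RpL15, RpL21, RpL29, RpL36A, RpL38, RpL40 and RpS24. The optimal list was identical to the 6407 pooled peaks of highest signal, and some unbound genes had a peak that lay lower in the pooled list of 30000. In that pooled list 83 of 92 members had a summit in the window, where 45.8% of all protein-coding genes did, and 62 of the 65 members with no listed paralogue. The 7 members gained were also found in both replicate lists. They included RpL40 at pooled rank 6788 with a signal of 184, RpS24 at 8682, RpL6 at 8963, RpS5b at 11962, RpL38 at 12946 and RpL15 at 13613. Their pooled summits lay 12 to 79 bp from the start, where the median of the bound members was 23.5 bp. RpL40, which is made as a ubiquitin fusion, was thus just outside the limit that RpL26 at rank 6273 passed.

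RpL24-like and RpS19b had a summit in the replicate 4 list alone, at ranks 2429 and 2117, and 127 and 893 bp from the start. The remaining 7, RpL10Aa, RpL21, RpL22-like, RpL29, RpL36A, RpL37-2 and RpS15Ab, had none within 1000 bp in any of the 4 lists. No call lay near the distance limit: the farthest bound summit was at 712 bp and the nearest optimal summits to unbound members were at 1744 bp from RpS15Ab and 1938 bp from RpL29. RpL15 (chr3L:27267255-27268445) and RpL38 (chr2R:4515388-4516458) lay far from any optimal peak, at 4171867 and 502413 bp. RpL15 and RpL36A host snoRNA genes. Neither a TCT initiator nor a divergent neighbour went with a peak in every case, since RpL21 and RpL29 carried the initiator, and RpL29, RpL36A and RpS15Ab had a divergent neighbour.

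Motif matches were counted from 250 bases before to 50 bases after the representative start. The TCT initiator (CTTT with a C or T directly before and after it, in the direction of transcription, within 10 bases of the start) matched 58 of 92 members (63.0%), 2.75% of the other bound genes and 2.86% of all protein-coding genes. It matched 37 of 54 large-subunit genes and 21 of 38 small-subunit genes, and the C at its second base lay a median of 4 bases after the annotated start base. Members with and without it were bound at similar shares, 49 of 58 (84.5%) and 27 of 34 (79.4%). Of protein-coding genes outside the 92 members with a TCT match, 96 of 341 were bound (28.2%), and the median summit distance of those bound was 219 bp.

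The DRE (TATCGATA, either strand) matched 28 members (30.4%), with 11.5% of other bound genes and 9.23% of all genes. The M1BP motif (GGTCACAC, either strand) matched 13 members (14.1%), with 10.8% and 7.79%. A TATA box (TATAAA, transcribed strand) matched 32.6% of members and 32.1% of all genes. Within 100 bp of the summit, 19 of 76 bound members held a DRE (25%) and 9 an M1BP motif (11.8%), against 6.01% and 4.09% of other bound genes. In the window at the start, both motifs were found about as often at unbound as at bound members. A DRE was at 5 of 16 unbound and 23 of 76 bound members, and an M1BP motif at 2 and 11. The factors' own genes also had optimal peaks, of signal 787 at Dref and 233 at M1BP.

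The Snail-family E-box CAGGTG (either strand) matched 6 of 92 members (6.52%), with 8.44% of other bound genes and 9.16% of all genes, and its longer form CAACAGGTG, which contains it, matched none. A missing match says only that these letters were absent from the window. Within 100 bp of the summit it matched 3 bound members, RpL41, RpS14a and RpS16, or 3.95%, with 8.56% of other bound genes. The match at RpS14a, 66 bp from the summit, is shown with the E-box in capitals because it is the Snail-family core itself (chrX:7933635-7933664, minus strand, RefSeq Release 6).
RpS14a: ggcttcaaacccCAGGTGgatttaaaaatg
The word GCAACA, found often at optimal summits in earlier results on these data, matched 19.6% of members and 21.1% of all genes in the promoter window. It matched 15 of 76 bound members within 100 bp of the summit (19.7%) and 31.9% of other bound genes. CAGCTG, another E-box, matched 7.89% and 17.8%, and GAGAGA, a repeat bound by GAGA factor, 1.32% and 11.8%. The word ACACTG went the other way, at 23.7% and 15.9%, and it can overlap the M1BP motif, as it does in RpL7. GCAACA shares bases with the longer E-box and with CAGCTG where they abut. None of these differences was tested.

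**Figure D4:**
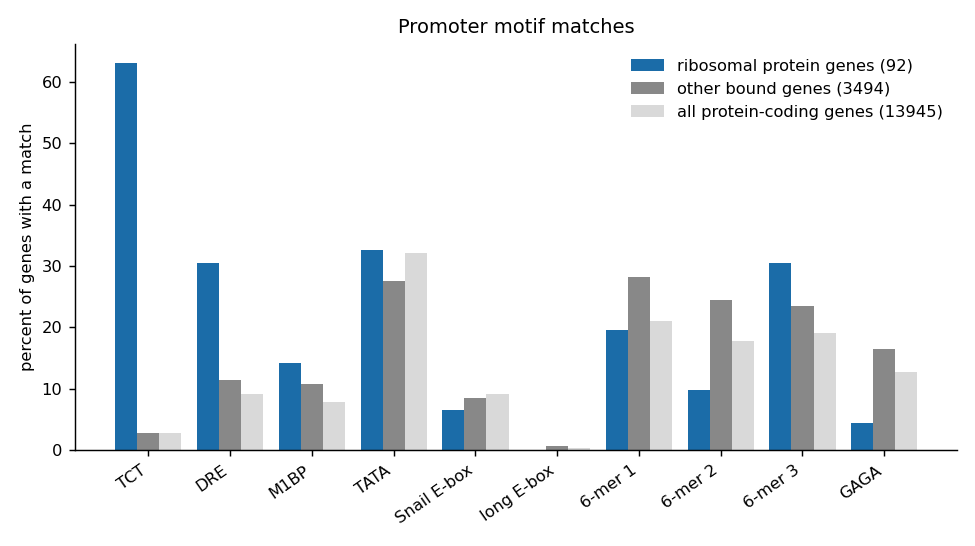
Percent of genes with a match from 250 bases before to 50 after the start, for 92 ribosomal protein genes (blue), 3494 other bound genes (dark grey) and all 13945 protein-coding genes (light grey); 6-mer 1 is GCAACA, 6-mer 2 is CAGCTG and 6-mer 3 is ACACTG. The TCT initiator stands out at 63.0% of members and 2.75% of other bound genes, the DRE is at 30.4% and 11.5%, and the Snail E-box is at 6.52% and 8.44%.

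The replicate lists ranked these genes differently. Each replicate list held 30000 peaks with its own signal scale, so peaks were compared by rank, where 1 is the highest signal, and a bound gene took the best-ranked replicate peak that overlapped its optimal peak. Of the 73 members with a peak in both lists, 63 (86.3%) ranked better in replicate 4 and 10 in replicate 3. Over all bound protein-coding genes with both ranks, 49.0% ranked better in replicate 4. The members' median rank was 2061 in replicate 3 and 1032 in replicate 4, while the other bound genes had medians of 2298 and 2414. The median log2 ratio of the rank in replicate 3 to that in replicate 4 was 1.07 at members and -0.04 at other bound genes. Both subunits took part, with 35 of 41 large-subunit and 28 of 32 small-subunit genes better in replicate 4.

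**Figure D5:**
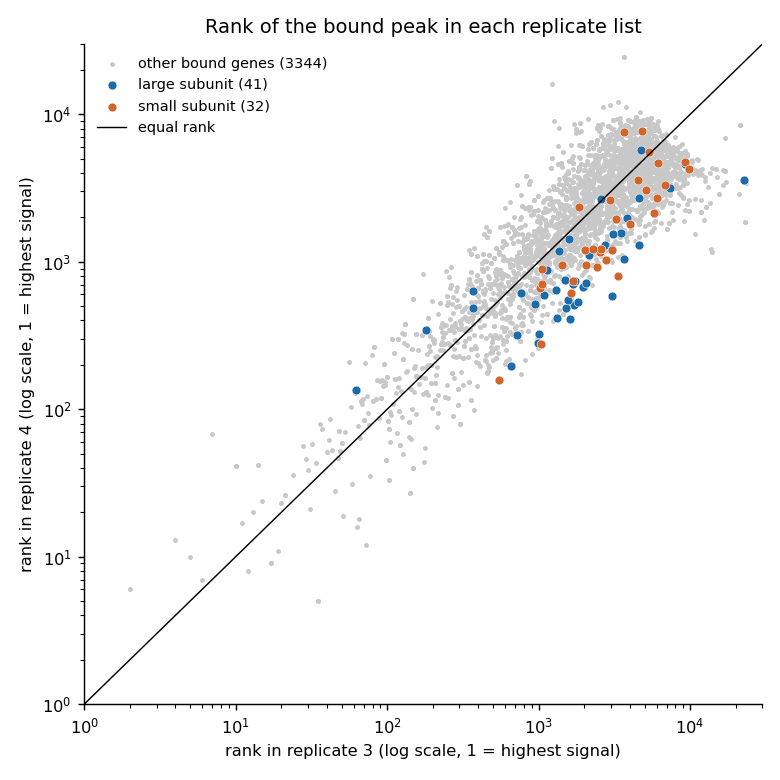
Rank of the overlapping peak in replicate 3 (horizontal) and replicate 4 (vertical), both on log scales with 1 the highest signal, for 41 large-subunit genes (blue), 32 small-subunit genes (orange) and 3344 other bound genes (grey); the line marks equal rank. Most members lie below the line, at better ranks in replicate 4 (63 of 73), while the grey cloud lies on both sides of it.

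The median of the members was shifted towards replicate 4 at all positions and signal levels examined. Members with a summit within 50 bp of the start had a median log2 rank ratio of 1.15 (n = 55) and other bound genes at that distance 0.08 (n = 548). For summits 51 to 200 bp from the start the members' median was 0.72 (n = 13), against 0.02 in other bound genes. Beyond 200 bp it was 0.73 (n = 5), against -0.10. Those 5 members ranged from -1.04 to 2.66, and RpL23 and RpS10a among them ranked better in replicate 3. Among members at optimal ranks 1 to 1281 the median was 1.21 (n = 34), against -0.12 in other bound genes of those ranks, and among members at ranks 5127 to 6407 it was 1.00 (n = 7) against 0.07. Members with the TCT initiator had a median of 1.00 and members without it 1.09, while other bound genes with the initiator had 0.03. Where the peak had no other coding start in the window, 24 of 27 members ranked better in replicate 4. The cause of the difference between the replicates was not tested, and with 2 replicates the spread of such a shift could not be estimated.

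Largest in the direction of replicate 4 were RpL26, at rank 22578 in replicate 3 and 3580 in replicate 4 (log2 ratio 2.66), RpL8 at 3050 and 583 (2.39), RpS3A at 3322 and 801 (2.05), RpL41 at 1599 and 407 (1.97) and RpS4 at 1031 and 277 (1.90). RpL8 is a core protein of the large subunit near the peptidyl transferase centre, and RpL41 is among the smallest proteins known. In the direction of replicate 3 the largest were RpL34b at 62 and 136 (-1.13), RpS10a at 3684 and 7555 (-1.04), RpL7-like at 179 and 345 (-0.95), RpL34a at 367 and 633 (-0.79) and RpS13 at 4831 and 7763 (-0.68). RpL34a and RpL34b had summits closer to a divergent neighbour. Of the other members with such a summit, RpL23 (-0.39) and RpS20 (-0.35) also ranked better in replicate 3. RpL26 (2.66) and RpLP0-like (1.22) ranked better in replicate 4. The median log2 rank ratio was 1.02 over the 20 bound members with a listed paralogue and 1.07 over the 53 without one. Among the 30000 peaks of replicate 3 none overlapped the peak of 3 bound members (3.95%), RpL14 and RpL35 among them, and the share was 3.69% of other bound genes. RpL14 nevertheless ranked 441 in the optimal list and 240 in replicate 4, and no bound member lacked a peak in replicate 4. Within the best 6407 peaks of a replicate list lay 67 members' peaks in replicate 3 and 74 in replicate 4, and 65 in both.

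Other genes of the ribosome were read from lists chosen with earlier results on these data known. The ribosomal proteins whose symbols fall outside the rule, sta (RpSA) and Rack1, were both bound, with signals of 536 and 726, summits 7 and 3 bp from the start and log2 rank ratios of 1.07 and 1.60, values like those of the members. Of 41 ribosome assembly genes 17 were bound (41.5%, with 25.6% of all protein-coding genes), with a median distance of 92 bp and a median log2 rank ratio of -0.14. The highest were eIF6, which keeps the subunits apart, at 1968, Non3 at 1761, RIOK2 at 1577 and Ns1 at 1504. Among genes for proteins of the snoRNA particles, Fib (fibrillarin), nop5, NHP2 and Gar1 were unbound, while Nop56 at 252, hoip at 444, Nop60B at 456 and Nop10 at 669.9 were bound. The summits lay 780 bp from the start of Nop56 and 828 bp from that of hoip, but 3 bp at Nop60B and 32 bp at Nop10. The Nop56 peak had no overlapping peak in replicate 3. Of 6 regulators of ribosomal protein genes 5 were bound, too few genes to set against that background: Xrp1 at 1096, Irbp18 at 1086, Dref at 787, Trf2 at 525 and M1BP at 233. Xrp1 and Irbp18 form the dimer that responds to ribosomal protein loss, Trf2 is used at TCT promoters, and Myc, the growth regulator, was unbound. The peak counted for Dref was that at the RpL13 start.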

How the data were processed

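Peak lists from ChIP-seq of embryos were analysed: 1 list per biological replicate, 1 for the pooled replicates (30000 peaks each, described in the labels as peaks and background for IDR) and the optimal IDR list of 6407 peaks. Signal and -log10 q-values per peak are the authors' own, deposited with each list on dm6; the q-values were not used for ranking. Neither aligner, peak caller, IDR threshold nor sequencing depth was stated in the sources used here, so no interval or floor from counts is given. Lists and summits (peak start plus offset) were read as deposited, and signal was compared only within a list. Starts came from Ensembl release 115 and bases from RefSeq Release 6; 0 of 96407 peaks passed a chromosome end. The 41 protein-coding genes outside the 6 arms with peaks were left out. Python 3.11.15, numpy 2.4.6, pandas 2.3.3 and matplotlib 3.10.9 were used, and peak assignment and motif search were tested on simulated data. There was 1 group of 2 replicates, so counts and medians are descriptions without a test. A count of features was held equal within 1.5-fold across alternatives, which changed the window, list, start, summit rule or motif window. Other values had other limits. The background percent was held to its 95% binomial (Wilson) interval, and the median signal to a 95% binomial interval of 506 to 742. The median distance was held within 5.66 bp, the standard deviation between the replicate lists. Control coverage and expression were not used here.

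The genes, paralogue pairs, motifs and other lists were chosen with earlier results of these data known, and the tallies by arm, start number, snoRNA host and repeated words were added after values were seen. Genes named with values were the 10 highest and 5 lowest signals, all unbound members, all paralogues, the 5 largest rank shifts each way, members without a replicate peak (of these groups, 2 genes are counted but not reported by name here), members sharing a divergent peak, and up to 4 bound and 4 unbound genes of each other list. The rest, such as RpL11, the snoRNA hosts and the 3 members with a summit on a start base, were named after their values were seen. Start sequences were printed for the 4 highest and for pairs with 1 bound copy, up to 8 genes.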

Additional observations from a re-analysis of the deposited data

How the results depend on the processing

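The number of bound members stayed between 61 and 78 of 92 under the alternatives that kept all members. It was 73 and 78 with windows of 500 and 2000 bp, and 61 with the 3203 optimal peaks of highest signal (38 large-subunit and 23 small-subunit genes). Wherever a replicate was left out, the best 6407 of the 30000 peaks in the list of the other replicate were used. By these cut lists 68 to 76 members were bound. The background share moved more. It was 22.0% at 500 bp, 31.1% at 2000 bp, 16.2% with the 3203 peaks, 26.5% with peak intervals in place of summits, 19.7% with each peak given to the nearest gene only, 23.7% with the representative start only, and 24.7% to 27.4% leaving out a replicate. At 500 bp 32 members shared their peak. The median summit distance was 22.5 to 30.5 bp leaving out a replicate; replicate 4 alone gave the lower and replicate 3 alone the higher value. Over members whose peak had no other coding start, an alternative chosen after seeing the data, it was 17.0 bp, and 24 of 27 ranked better in replicate 4. Windows reaching 500 bp to either side of the start, wider than the main ones, gave 23 members with the M1BP motif (25%, with 10.9% of all genes), 49 with a TATA box (53.3%, 56.4%), 22 with CAGGTG (23.9%, 38.4%), 3 with CAACAGGTG (3.26%, 1.45%), 52 with GCAACA (56.5%, 52.3%), 28 with CAGCTG (30.4%, 42.1%), 53 with ACACTG (57.6%, 40.7%) and 15 with GAGAGA (16.3%, 29.4%). GCAACA was thus above the share of all genes there and below it in the main window. Within 100 bp of the summit, over bound members only, the counts were 12 with a TATA box (either strand), 3 with CAGGTG, 18 with ACACTG and 1 with GAGAGA. Of 74 alternative values, each held to the limit for its kind of value, 50 stayed and 24 moved. Every alternative of the background share was among those that moved. No paired analysis was possible because there was a single group. Read depth is unknown, so whether an unbound gene lacked a peak for want of reads was not tested.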
